A study of Mus musculus with 6 samples.

Results

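The genes described here are 44 genes of the unfolded protein response and the secretory pathway, out of 26286 genes in the deposited count tables. They were chosen by name, as the rows whose gene symbol was on a list of stress sensors and their transcription factors (6 genes), chaperones and cochaperones of the endoplasmic reticulum (ER, 12 genes), protein disulfide isomerases (4 genes), the protein translocation machinery (11 genes), ER-associated degradation (8 genes) and the COPII coat (3 genes). All 44 were found in both tables. The series measured RNA of regulatory T cells (Treg) of C57BL/6 mice that carry a Blimp1/GFP reporter, in which GFP fluorescence marks cells that transcribe Prdm1, the gene of the transcription factor Blimp1. Sample titles give these mice the prefix BlimpHet, which the labels do not explain, and no age is given. Sorting of CD4+ CD25high cells from pooled spleens and lymph nodes gave GFP+ and GFP- cells, with 3 libraries of each population that the submitters describe as biologically independent, and none of the cells was given a treatment named in the labels. In each population 1 library came from poly(A)-selected RNA (GFP- replicate 20, GFP+ replicate 19) and 2 from an mRNA protocol designed for single cells, here used on RNA purified from a sorted population (GFP- replicates 2 and 5, GFP+ replicates 1 and 4). Below, 6 values in a row follow this order, GFP- replicates 20, 2 and 5 and then GFP+ replicates 19, 1 and 4, and they are CPM, read counts scaled to a common library size and by TMM, a factor that evens out differences in library composition.

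Proteins that are to be secreted or to sit in membranes enter the ER through the Sec61 channel, are folded there by chaperones and disulfide isomerases, and leave in COPII-coated vesicles, while proteins that fail to fold are returned to the cytosol and degraded. When unfolded proteins accumulate, the sensors IRE1 (gene Ern1), PERK (gene Eif2ak3) and ATF6 start the unfolded protein response: IRE1 splices Xbp1 mRNA, PERK slows translation and favours that of Atf4, and ATF6 is cleaved into a transcription factor. In B cells that become plasma cells, Blimp1 and XBP1 are known for the growth of this whole secretory apparatus, so the GFP+ against GFP- comparison asks how these genes stand in Treg that transcribe the gene of the same factor.

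A known control sequence of this pathway is the ER stress response element (ERSE), which ATF6 and XBP1 bind together with NF-Y. It was searched on both strands of the 250 bases before and 50 bases after each start site in RefSeq promoters of build GRCm38.p6, a later build than the mm9 on which the authors counted reads. Promoters were matched for 37 of the 44 genes, by gene number, and none for Atf6, Manf, Hyou1, Mzb1, Sec61a1, Ssr2 and Derl1. Of these, 9 genes held the element (Calr, Canx, Creld2, Derl3, Dnajc3, Hsp90b1, Hspa5, Pdia6 and Syvn1), against 37 of 27025 genes in the whole promoter table (0.137%). The related ERSE-II stood in Dnajb11 and Herpud1 (0.0365% of the 32851 promoters), the XBP1-type element UPRE in Sec24d (0.676% of promoters) and the ATF4-type element CARE in Herpud1 (3.97% of promoters). A match describes the letters and shows no binding. The 5 promoters printed here, as the 250 bases before the start site with the element in capitals, belong to 4 of the genes with the higher values in GFP+ cells and to Dnajc3, the gene with the element whose values were lower in GFP+ cells. The element lay at -65 to -47 from the start site in Hspa5 (chr2:34771840-34772089, plus strand), at -98 to -80 in Pdia6 (chr12:17266339-17266588, plus strand) and at -105 to -87 in Dnajc3 (chr14:118937682-118937931, plus strand). It stood at -126 to -108 on the opposite strand in Creld2 (chr15:88819396-88819645, plus strand). In Hsp90b1 (chr10:86705445-86705694, minus strand) it occurred at -212 to -194 and again, on the opposite strand, at -107 to -89.
Hspa5: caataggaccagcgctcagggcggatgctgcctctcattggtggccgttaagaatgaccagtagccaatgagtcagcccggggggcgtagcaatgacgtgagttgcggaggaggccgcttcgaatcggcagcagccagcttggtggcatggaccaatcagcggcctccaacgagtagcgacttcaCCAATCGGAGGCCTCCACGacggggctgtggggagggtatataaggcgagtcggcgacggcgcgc
Hsp90b1: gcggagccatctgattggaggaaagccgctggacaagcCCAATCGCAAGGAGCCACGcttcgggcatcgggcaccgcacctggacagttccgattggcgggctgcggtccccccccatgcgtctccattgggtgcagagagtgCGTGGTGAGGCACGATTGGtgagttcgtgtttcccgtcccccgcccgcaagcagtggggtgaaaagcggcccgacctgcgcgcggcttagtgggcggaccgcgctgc
Pdia6: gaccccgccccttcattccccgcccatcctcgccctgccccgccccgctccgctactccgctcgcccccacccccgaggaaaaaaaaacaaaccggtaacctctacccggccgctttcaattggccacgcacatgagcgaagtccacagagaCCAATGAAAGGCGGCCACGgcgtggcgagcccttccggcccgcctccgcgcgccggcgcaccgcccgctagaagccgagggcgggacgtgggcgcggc
Creld2: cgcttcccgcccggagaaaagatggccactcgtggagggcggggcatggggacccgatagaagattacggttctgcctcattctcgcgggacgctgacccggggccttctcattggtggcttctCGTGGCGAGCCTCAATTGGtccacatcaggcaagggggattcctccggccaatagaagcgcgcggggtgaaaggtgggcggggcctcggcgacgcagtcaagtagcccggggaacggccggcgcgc
Dnajc3: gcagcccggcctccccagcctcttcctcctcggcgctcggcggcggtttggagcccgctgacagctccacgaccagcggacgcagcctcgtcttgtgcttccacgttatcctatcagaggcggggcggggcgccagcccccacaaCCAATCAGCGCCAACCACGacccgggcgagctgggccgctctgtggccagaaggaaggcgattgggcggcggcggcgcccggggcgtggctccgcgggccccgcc

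Total counts ran from 15224051 to 28354321 per library. Prdm1, the gene behind the reporter, was at 9.07, 2.45 and 2.64 CPM in GFP- and at 150.6, 44 and 29.3 CPM in GFP+ libraries, so every GFP+ library stood above every GFP- library, as the labels state. Genes of chromosomes 3, 8 and 9 took 14.6% and 14.3% of the counts in the poly(A) libraries but at most 0.00350% in the other libraries. For 8 of the 44 genes, which lie on these chromosomes, only the poly(A) pair therefore gives values, and they entered no test. Ern1 did not pass the filter on low counts. The remaining 35 genes passed it and were tested with edgeR's quasi-likelihood test with the protocol as covariate, and p-values were adjusted by the Benjamini-Hochberg method over all 10550 genes tested. These p-values measure the spread between 3 libraries per population. In bulk RNA, fewer cells of a type and less RNA per cell cannot be told apart.

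Few of the secretory genes differed detectably between GFP+ and GFP- Treg. Of the 35 tested genes, 1 rose (Atf6) and none fell at an adjusted p under 0.05, while 9.82% of all tested genes rose and 3.72% fell. At an unadjusted p under 0.05, 5 of the 35 were higher (Atf6, Hsp90b1, Pdia6, Sec61a1 and Creld2), which is 14.3% against 15.4% of all tested genes, and none was lower, against 11.6% of all genes. No member was called lower by DESeq2 or limma either. Fold changes were mostly small and positive: 26 of 35 genes had a log2 fold change above 0 (74.3%, against 43.7% of all tested genes), with a median of 0.20 against -0.08 over all tested genes. Standard errors ran from 0.21 to 0.57 on the log2 scale, with a median of 0.28, so many differences of this size could not be told from 0. The 95% interval lay wholly above 0 for those same 5 genes, and for 18 of the 35 it lay between -1 and 1, so a change past 1 on the log2 scale lay outside the intervals of those genes. Their difference from the other genes as a list was not tested.

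**Figure D1:**
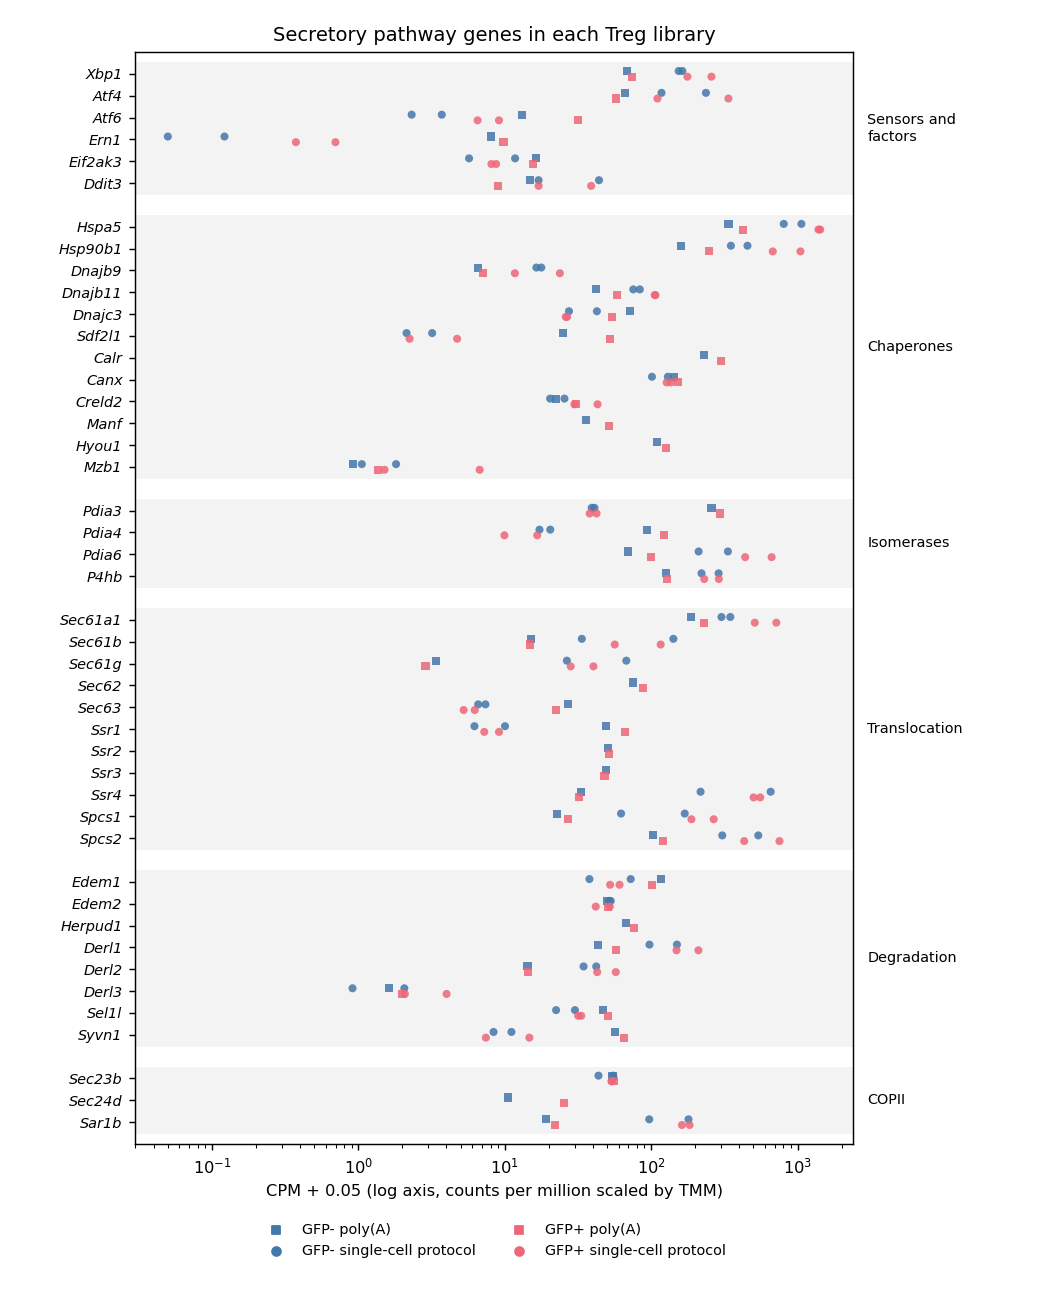
CPM plus 0.05 (log axis) of each of the 44 genes in each of the 6 libraries, ordered by role. Blue marks are GFP- and red marks GFP+ libraries, squares poly(A) and circles single-cell protocol libraries. The red marks of Atf6, Hsp90b1, Pdia6 and Sec61a1 lie above the blue marks of the same shape, and the levels of many genes differ more between shapes than between colours.

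Levels per length, as RPKM (read counts divided by gene length and library size) in the poly(A) pair, placed the luminal chaperones highest. Hspa5 was at 219 RPKM in the GFP- and 283 RPKM in the GFP+ library, Calr at 202 and 269.9 RPKM and Pdia3 at 166 and 194 RPKM. The ranges of Hspa5 and Calr overlapped, so their order is not settled, and the same holds for Hsp90b1 (99.1 and 157 RPKM) and Sec61a1 (105 and 132 RPKM). The lowest levels were those of Mzb1 (1.62 and 2.53 RPKM), Derl3 (2.01 and 2.53 RPKM), Ern1 (3.42 and 4.28 RPKM) and Atf6 (2.96 and 7.44 RPKM). The member that rose was thus among the least abundant, and the abundant ones did not pass the test.

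Among the sensors and their transcription factors, only Atf6 passed the test. Atf6, the sensor that is cut in the Golgi to release a transcription factor, was at 13, 3.67 and 2.26 CPM in GFP- and at 31.8, 9.09 and 6.48 CPM in GFP+ libraries. Within each protocol every GFP+ library was above every GFP- library, though the poly(A) GFP- library lay above both single-cell protocol GFP+ libraries. Its log2 fold change was 1.33 ± 0.27 (SE, 95% interval 0.71 to 1.95, n = 3 per population, adjusted p = 0.0125, edgeR). The size was nearly the same by protocol, with a log2 ratio of 1.26 in the poly(A) pair and a log2 fold change of 1.35 in the single-cell protocol libraries. By edgeR, the call was lost without either poly(A) library, GFP- replicate 20 (adjusted p = 0.101) or GFP+ replicate 19 (0.114). It was also lost without GFP+ replicate 1 (0.0647). Since the protocol is a term in the model, leaving out either poly(A) library takes the whole poly(A) pair out of the comparison. Those fits are thus close to that of the single-cell protocol libraries alone (edgeR adjusted p = 0.124) and are not separate checks.

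Xbp1, whose spliced mRNA encodes the main transcription factor of the IRE1 arm, was at 68.5, 154 and 164 CPM in GFP- and at 74.0, 177 and 258 CPM in GFP+ libraries. GFP+ values were the higher ones within both protocols, by small margins in the poly(A) pair. The log2 fold change of 0.34 ± 0.25 (SE, 95% interval -0.23 to 0.91, n = 3 per population) did not pass (edgeR adjusted p = 0.433). Counts per gene do not show how much of this mRNA was spliced. Ern1, the gene of IRE1 itself, had 370, 1 and 0 reads in GFP- and 483, 4 and 9 reads in GFP+ libraries. It was thus measured with some depth only in the poly(A) pair, at 7.99 and 9.76 CPM.

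Atf4, the factor whose translation PERK favours, was at 65.9, 237 and 118 CPM in GFP- and at 57.5, 337 and 110.5 CPM in GFP+ libraries. The populations overlapped, and the log2 fold change was 0.16 ± 0.44 (SE, 95% interval -0.84 to 1.16). Eif2ak3, the gene of PERK, was at 16.2, 11.7 and 5.66 CPM in GFP- and at 15.6, 8.69 and 8.06 CPM in GFP+ libraries, which also overlapped. Ddit3, the gene of the stress factor CHOP, was at 14.8, 44 and 17.0 CPM against 9.01, 38.9 and 17.0 CPM. The only clear gap was in the poly(A) pair, where GFP+ was lower, and the log2 fold change of -0.33 ± 0.41 did not pass (edgeR adjusted p = 0.664).

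The chaperones leaned upwards, with log2 fold changes above 0 in 8 of 9 tested genes and a median of 0.51, but none passed. Hsp90b1, the ER chaperone GRP94, was at 161, 455 and 351 CPM in GFP- and at 248, 1047 and 678 CPM in GFP+ libraries. Every GFP+ library exceeded the GFP- libraries of its protocol, and the log2 fold change was 0.94 ± 0.30 (SE, 95% interval 0.26 to 1.62, edgeR adjusted p = 0.0761). The choice of method decided this call: the adjusted p was 0.0108 with DESeq2, 0.0368 without a count filter and 0.0317 with scaling by library totals. Hspa5, the chaperone BiP that also holds the sensors inactive, was at 338, 805 and 1063 CPM in GFP- and at 424, 1389 and 1428 CPM in GFP+ libraries. Its values too were separated within each protocol, but the log2 fold change of 0.51 ± 0.28 had a 95% interval from -0.13 to 1.14 (edgeR adjusted p = 0.292).

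Mzb1, a cochaperone of B cell and plasma cell ER that helps antibody assembly, was at 0.86, 1.01 and 1.76 CPM in GFP- and at 1.31, 1.46 and 6.70 CPM in GFP+ libraries. GFP+ replicate 4 stood far above the others, and the remaining single-cell protocol libraries overlapped. The log2 fold change of 1.23 ± 0.57 (SE, 95% interval -0.07 to 2.53, edgeR adjusted p = 0.211) dropped to 0.38 without that library. The same library had the highest level of Jchain, the joining chain of secreted antibodies, at 135 CPM against 11.2 and 8.69 CPM in the other GFP+ libraries and 1.53, 1.51 and 15.7 CPM in GFP- libraries. Whether plasma cell RNA had a part in the Mzb1 value was not tested.

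Of the other chaperone genes, Creld2, an ER stress-induced isomerase-like protein, was at 22.4, 25.5 and 20.4 CPM in GFP- and at 30.8, 43.0 and 29.9 CPM in GFP+ libraries. All 3 GFP+ libraries lay above all 3 GFP- libraries whatever the protocol, with a log2 fold change of 0.59 ± 0.23 (SE, 95% interval 0.06 to 1.12) that did not pass (edgeR adjusted p = 0.142). Sdf2l1, a partner of BiP, had a log2 fold change of 0.70 ± 0.34, and its poly(A) ratio of 1.06 was larger than the 0.40 of the single-cell protocol libraries, in which it was at 2.09 to 4.68 CPM. Dnajb11, a BiP cochaperone, was at 0.44 ± 0.21, the lectin chaperone Canx at 0.16 ± 0.23 and the BiP cochaperone Dnajb9 at 0.07 ± 0.29. Dnajc3, the cochaperone P58IPK that also inhibits PERK, went the other way, at 71.3, 42.6 and 27.4 CPM in GFP- and 54.1, 26.1 and 26.6 CPM in GFP+ libraries. Its GFP+ values were below the GFP- values within both protocols, narrowly so in the single-cell protocol, and the log2 fold change of -0.41 ± 0.23 did not pass (edgeR adjusted p = 0.305). Calr, the soluble lectin chaperone, was measured in the poly(A) pair only, at 230.5 CPM in GFP- and 300.5 CPM in GFP+ cells. There too, Manf, a secreted ER stress protein, was at 36.0 and 51.4 CPM, and Hyou1, the exchange factor of BiP, at 110 and 127 CPM.

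The disulfide isomerases, which form and reshuffle disulfide bonds, did not move together, and none of the 4 passed. Pdia6 was at 69.1, 335 and 211 CPM in GFP- and at 100.2, 666 and 439 CPM in GFP+ libraries, separated within each protocol. The log2 fold change was 0.86 ± 0.31 (SE, 95% interval 0.16 to 1.55), with an adjusted p of 0.110 in edgeR and 0.0356 in DESeq2. P4hb and Pdia3, the abundant isomerases, were at log2 fold changes of 0.03 ± 0.25 and 0.06 ± 0.22. Pdia4 was at -0.20 ± 0.29 and pointed in opposite directions by protocol, at a log2 ratio of 0.38 in the poly(A) pair and a log2 fold change of -0.52 in the single-cell protocol libraries.

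**Figure D2:**
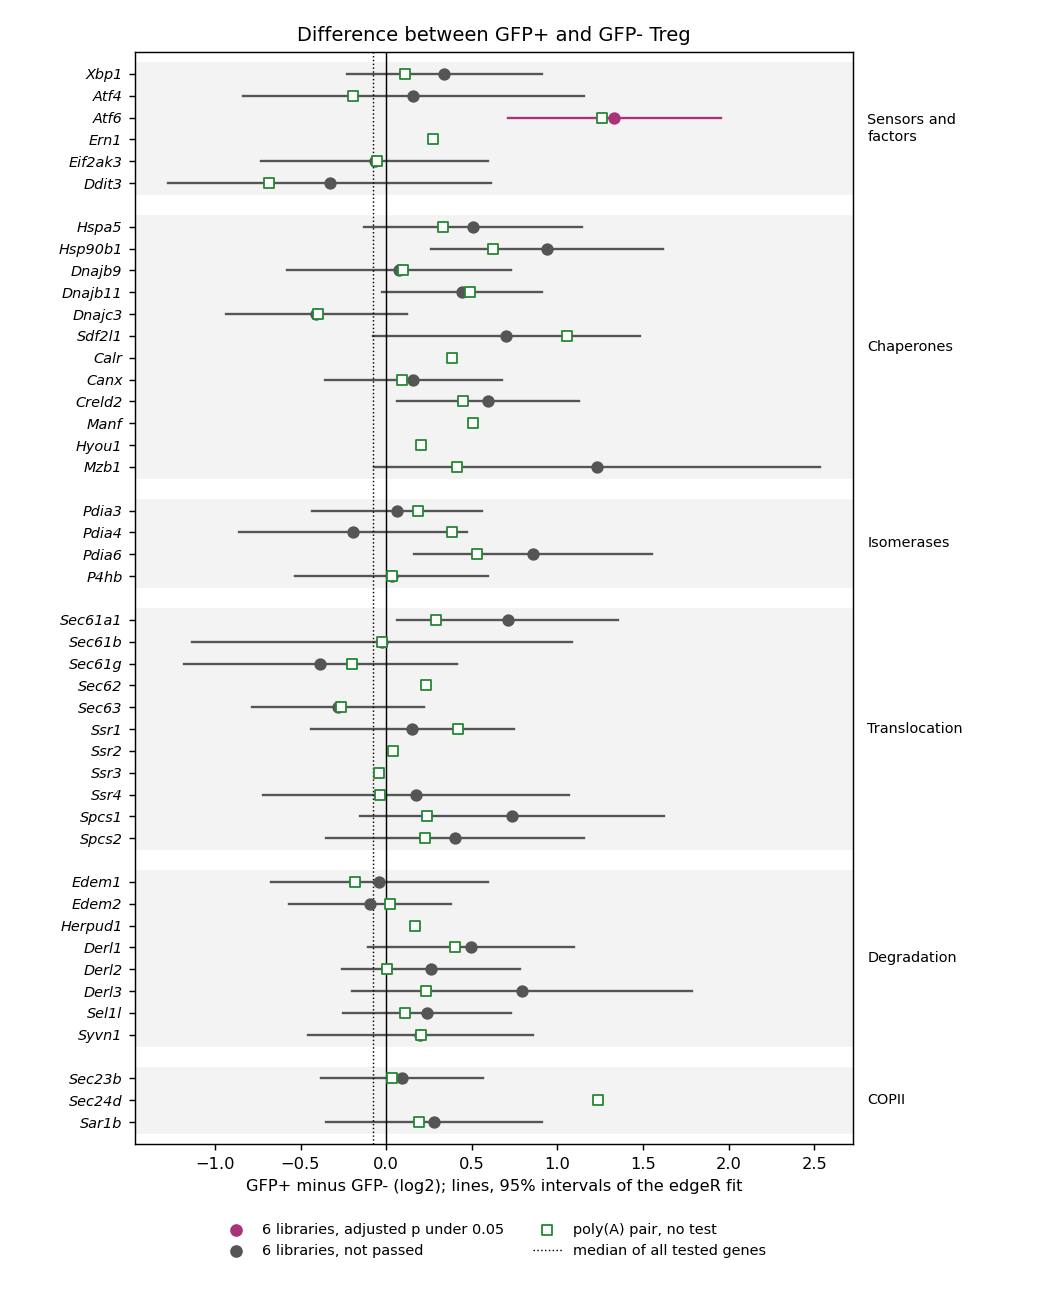
Difference between GFP+ and GFP- Treg (log2) for each gene, with circles for the edgeR estimate over 6 libraries, lines for its 95% interval and open squares for the ratio in the poly(A) pair, which is the only value of the 8 genes on chromosomes 3, 8 and 9. The solid vertical line is 0 and the dotted line the median of all tested genes, -0.08. Atf6 is the coloured circle that passed the test, at 1.33, and the intervals of most other genes cross 0.

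Of the translocation genes, 8 were tested and none passed. Sec61a1, the pore-forming subunit of the channel, was at 188, 302 and 348 CPM in GFP- and at 229.6, 717 and 511 CPM in GFP+ libraries. GFP+ was higher within each protocol, with a log2 fold change of 0.71 ± 0.28 (SE, 95% interval 0.07 to 1.35, edgeR adjusted p = 0.148). The small subunits Sec61b and Sec61g did not follow it, at -0.02 ± 0.49 and -0.38 ± 0.35. Sec63, which recruits BiP to the channel, was at -0.28 ± 0.22 and was lower in GFP+ libraries within each protocol. The signal peptidase genes Spcs1 and Spcs2 were at 0.73 ± 0.39 and 0.40 ± 0.33, and the translocon-associated genes Ssr1 and Ssr4 at 0.15 ± 0.26 and 0.17 ± 0.39. In the poly(A) pair alone, Sec62, a partner of Sec63, was at 74.7 CPM in GFP- and 87.9 CPM in GFP+ cells, Ssr2 at 50.4 and 51.8 CPM and Ssr3 at 49.4 and 48.0 CPM.

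None of the 7 tested genes of ER-associated degradation passed or had an unadjusted p under 0.05 in edgeR, and their median log2 fold change was 0.24. Derl3, a derlin of secretory cells that helps to draw misfolded proteins out of the ER, was at 1.58, 0.86 and 2.01 CPM in GFP- and at 1.94, 2.03 and 3.96 CPM in GFP+ libraries. Its GFP+ values were above the GFP- values within each protocol, narrowly so in the single-cell protocol, and GFP+ replicate 4 was again the highest library. The log2 fold change was 0.79 ± 0.44 (SE, 95% interval -0.20 to 1.79, edgeR adjusted p = 0.289). The related derlins Derl1 and Derl2 were at 0.50 ± 0.26 and 0.26 ± 0.23. Sel1l and Syvn1, the adaptor and the ubiquitin ligase of the central degradation complex, were at 0.24 ± 0.21 and 0.20 ± 0.29. The mannosidase-like genes Edem1 and Edem2, which select glycoproteins for degradation, were at -0.04 ± 0.28 and -0.09 ± 0.21. Herpud1, which organises that complex, was at 67.4 CPM in GFP- and 75.8 CPM in GFP+ cells in the poly(A) pair.

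Of the COPII genes, Sec23b, an inner coat subunit, and Sar1b, the GTPase that starts coat assembly, were at log2 fold changes of 0.09 ± 0.21 and 0.28 ± 0.28. Sec24d, a cargo-binding coat subunit, had 482 reads (10.4 CPM) in the GFP- and 1250 reads (25.3 CPM) in the GFP+ poly(A) library. Its log2 ratio of 1.24 had no replicate. Of the 8 genes seen in the poly(A) pair only, 7 had the higher value in GFP+ cells (38.7% of the genes of chromosomes 3, 8 and 9 at 1 CPM or more did). Sec24d was the only one of them past a log2 ratio of 1, which 8.05% of those genes passed, and none was below -1, which 3.64% of those genes were.

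Counted by library rather than by test, 12 of the 35 tested genes had every GFP+ library above every GFP- library of the same protocol (21.3% of all tested genes did) and 2 had every one below (Dnajc3 and Sec63, against 19.3% of all tested genes). Summed over the 36 members with single-cell protocol counts, the members reached 2386, 4269 and 4774 CPM in GFP- and 2808, 7217 and 6091 CPM in GFP+ libraries. The sum was higher in GFP+ cells within each protocol, by 1.18-fold in the poly(A) pair, and Hspa5 was the largest single part of it in every library. Chaperones alone summed to 809, 1554 and 1669 CPM against 1028, 2756 and 2440 CPM. Degradation genes summed to 329, 297 and 317 CPM against 343, 337 and 423 CPM, a narrower gap.

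The protocols gave the same direction for most of the 35 tested genes: 22 were higher in GFP+ cells in the poly(A) pair and in the single-cell protocol libraries, 6 were lower in both and 7 were opposite. The share of all tested genes with the same direction in both was not counted, so whether this is unusual is not known. In the poly(A) pair 26 of the 35 tested genes were higher, against 41.6% of all tested genes. In the single-cell protocol libraries 25 of the 35 were, against 44.5% of the 10235 genes tested there. In the single-cell protocol libraries alone, edgeR called none of the 35 in either direction, where 5.54% of genes rose and 1.41% fell. At an unadjusted p under 0.05, 2 members were higher there (Atf6 and Mzb1) and none lower, against 11.2% and 5.05% of all genes. No member and 0% of all tested genes differed in their population effect between protocols at an adjusted p under 0.05 (edgeR interaction term). At an unadjusted p under 0.05, 0.256% of all genes did and no member, and scaling by DESeq2's size factors or leaving out the count filter also gave no member.

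**Figure D3:**
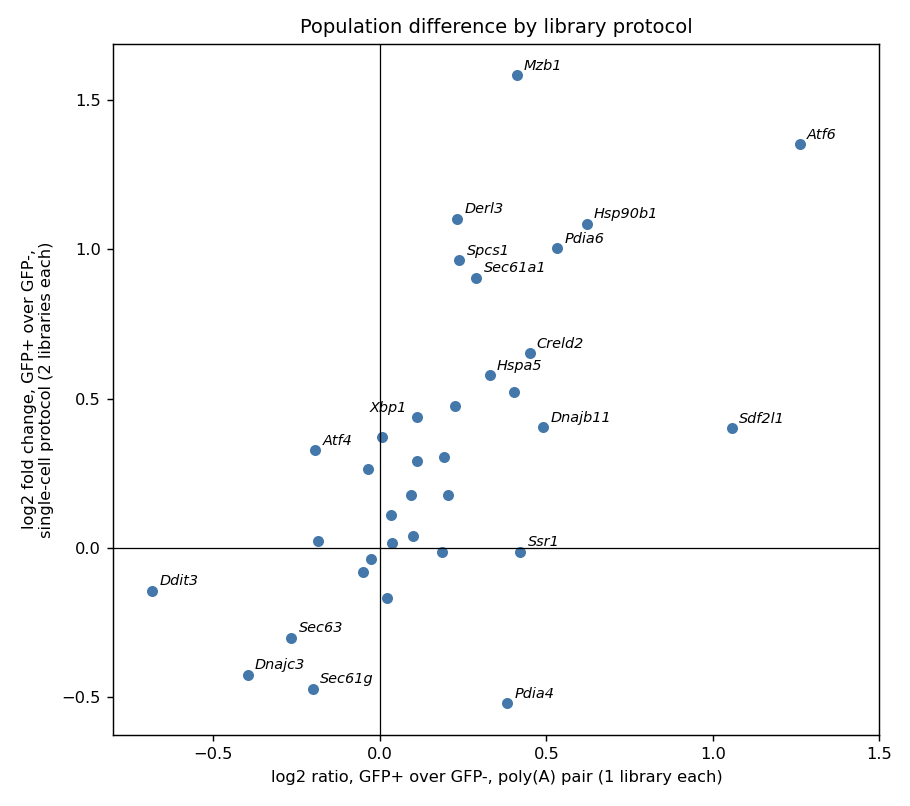
Each point is 1 of the 35 tested genes, placed by its log2 ratio of GFP+ over GFP- in the poly(A) pair (horizontal axis, 1 library each) and its log2 fold change in the single-cell protocol libraries (vertical axis, 2 libraries each). Of the points, 22 lie above 0 on both axes and 6 below 0 on both. Atf6 is far from 0 on both axes, Mzb1 and Derl3 mainly on the vertical and Sdf2l1 mainly on the horizontal axis.

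The library protocol moved these genes more than the population did. Of the 35 tested genes, 18 were higher in the single-cell protocol libraries and 11 lower (edgeR, adjusted p under 0.05), where 30.5% and 34.6% of all tested genes were. Ssr4 was higher there by 3.88 ± 0.51 and Sec61g by 3.71 on the log2 scale, while Sdf2l1 was at -3.62 ± 0.33, Ssr1 at -2.82 and Pdia3 at -2.78. Atf6, the member that rose with GFP, was at -2.06 in the single-cell protocol libraries. The protocol difference went with gene length: Spearman's rho was -0.58 over the 35 genes and -0.62 over all 10550 tested genes, given as a description, since all genes share the same 6 libraries. Of the 12 members longer than 3000 bases, 8 were lower and 3 higher in the single-cell protocol libraries. Of the 23 at or under 3000 bases, 3 were lower and 15 higher. Lengths here are those deposited with the poly(A) counts. In the lengths deposited with the single-cell protocol counts, each of the 12 longer members has exactly 3000 bases. Whether this bears on the protocol difference was not tested. Both populations hold both protocols in the same numbers, and the protocol was a term in the model. Without that term, edgeR called no member, 113 genes higher and 23 lower, and the adjusted p of Atf6 was 1.00.

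**Figure D4:**
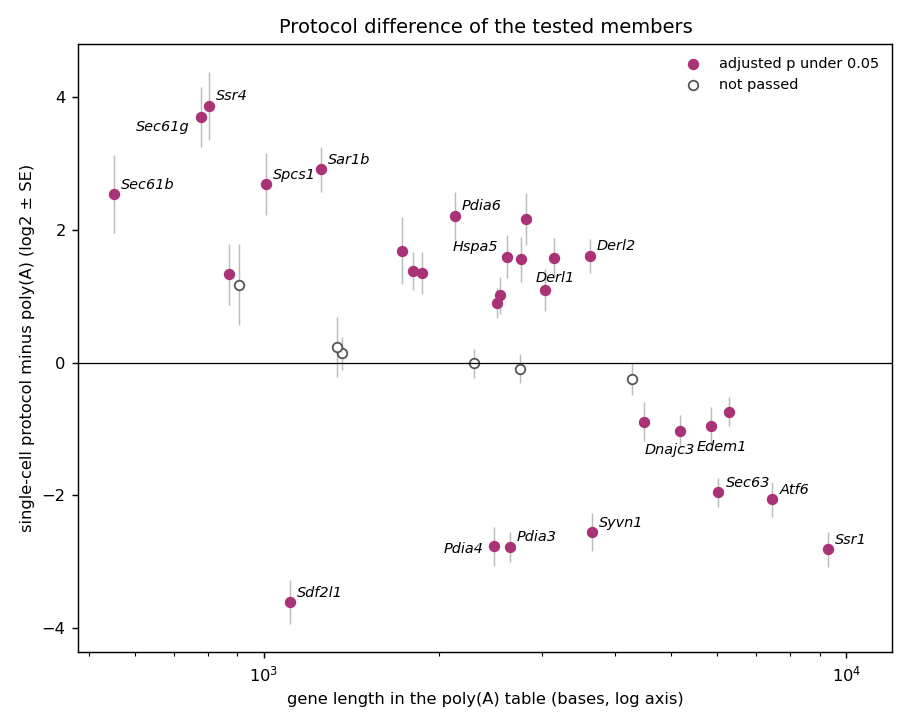
Protocol difference (single-cell protocol minus poly(A), log2 ± SE) of the 35 tested genes against gene length in bases (log axis), with genes that passed the test of the protocol coloured. Short genes such as Ssr4 (3.88) and Sec61g (3.71) lie high and most genes over 3000 bases lie below 0, with Sdf2l1 (-3.62) a short gene that lies low.

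Read by promoter letters, and as a description only, the 8 tested genes with the ERSE had a median log2 fold change of 0.55, with 7 above 0 and a range from -0.41 (Dnajc3) to 0.94 (Hsp90b1). The 23 tested genes whose matched promoter held no exact copy of it had a median of 0.09, with 15 above 0 and a range from -0.38 to 0.73. Dnajb11, which holds the related ERSE-II, was among these 23, at 0.44. In the poly(A) pair the medians were 0.33 over 9 genes and 0.11 over 28 genes. The ranges overlap, and Dnajc3, whose element is printed above, was below 0 where the other 7 were above it. Atf6, Mzb1, Sec61a1 and Derl1 were tested but had no matched promoter, so they are in neither group. Their log2 fold changes of 1.33, 1.23, 0.71 and 0.50 are thus missing from these medians.

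Further genes of the same pathways, taken from lists of other members of each process, gave 4 calls. Txndc5, a disulfide isomerase of the thioredoxin type, was at 44.3, 34.8 and 33.8 CPM in GFP- and at 84.0, 108 and 96.8 CPM in GFP+ libraries. All GFP+ libraries lay above all GFP- libraries, and the log2 fold change of 1.36 ± 0.23 (SE, n = 3 per population, edgeR adjusted p = 0.00542) was kept whichever library was left out. Fkbp2, a prolyl isomerase of the ER, was at 7.93, 15.5 and 28.9 CPM against 13.9, 57.2 and 64.5 CPM, higher in GFP+ cells within each protocol. It rose by 1.24 ± 0.29 (edgeR adjusted p = 0.0221), though not without GFP+ replicate 1 (0.0829) or 4 (0.0538). These were the 2 genes that rose among 12 tested of 15 listed folding enzymes and oxidases, and none fell, where 9.82% of all tested genes rose and 3.72% fell. At an unadjusted p under 0.05 in edgeR, 5 of the 12 were higher (41.7%, against 15.4% of all tested genes). The list as a whole was not tested. Ero1a, the oxidase that recharges disulfide isomerases, was at 0.79 ± 0.25 and did not pass (edgeR adjusted p = 0.0729), though DESeq2 and limma called it.

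Of 15 listed targets of the PERK and ATF4 arm, 9 were tested, and by edgeR 1 rose and 1 fell, where 9.82% of all tested genes rose and 3.72% fell. The list is too short for 1 call in either direction to set it apart. At an unadjusted p under 0.05 in edgeR, 4 of the 9 passed (44.4%, against 26.9% of all tested genes), 3 of them higher. The list as a whole was not tested. Asns, the asparagine synthetase that ATF4 induces, was at 1.34, 2.30 and 4.65 CPM in GFP- and 4.32, 7.23 and 8.71 CPM in GFP+ libraries. It was higher in GFP+ cells within each protocol and rose by 1.40 ± 0.33 (edgeR adjusted p = 0.0232). Trib3, a pseudokinase that restrains the same arm and is also an ATF4 target, was at 3.93, 2.23 and 4.65 CPM against 1.72, 0.89 and 1.44 CPM. Every GFP+ library was below every GFP- library, and Trib3 fell by 1.38 on the log2 scale (SE 0.38, edgeR adjusted p = 0.0465). Both calls were lost in most fits that left out a library. By edgeR, Asns lost its call without GFP- replicate 20 (0.209) or any 1 of GFP+ replicates 19, 1 and 4 (0.214, 0.0667 and 0.0618). Trib3 lost it without any 1 library other than GFP- replicate 2 (0.0645 to 0.197). As for Atf6, leaving out GFP- replicate 20 or GFP+ replicate 19 takes the whole poly(A) pair out of the comparison. The log2 fold change of Asns was 1.22 to 1.51 in the fits that lost the call. Slc3a2, a subunit of amino acid transporters, was at 0.79 ± 0.24 and did not pass (edgeR adjusted p = 0.0615), though DESeq2 called it.

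The other lists gave no call in either direction by edgeR or DESeq2, and 1 by limma (Sec11c). These were other sensors and regulators (9 tested of 11), glycan transfer and trimming (7 of 13), other targeting, translocation and signal peptidase genes (10 of 14), other degradation genes (12 of 14), other COPII and export genes (9 of 10) and COPI coat and cargo receptor genes (12 of 17). By edgeR, 9.82% of all tested genes rose and 3.72% fell. At an unadjusted p under 0.05 in edgeR, 3 of the lists just named had 1 gene each and the others none, against 26.9% of all tested genes. Nearest to the threshold was Sec11c, a catalytic subunit of signal peptidase, at 18.5, 57.8 and 124 CPM in GFP- and 29.2, 192 and 231 CPM in GFP+ libraries. It was higher in GFP+ cells within each protocol, at 1.04 ± 0.32 (edgeR adjusted p = 0.0715). The nearest sensor gene, Creb3l1, was at 0.83 ± 0.36, Nfya, a subunit of NF-Y, at -0.34 ± 0.23 and Atf6b, the relative of Atf6, at -0.33 ± 0.25. Of the 9 other COPII genes, 7 were below 0, with Sec24a at -0.55 ± 0.24, and the cargo receptors Tmed2, Lman1 and Surf4 were at 0.55 ± 0.21, 0.45 ± 0.20 and 0.53 ± 0.26.

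Markers of the labelled cell type were present in all libraries. The 7 T cell markers with single-cell protocol counts summed to 2910 to 7043 CPM in GFP- and 2719 to 7102 CPM in GFP+ libraries, led by Lck, Lat and Cd5, and none of 7 tested passed by edgeR, DESeq2 or limma or had an unadjusted p under 0.05. The 6 Treg markers summed to 2260 to 4920 CPM against 2247 to 9533 CPM, led by Tnfrsf18, Foxp3 and Ctla4. Foxp3, the defining factor of Treg, was at 1090 to 2196 CPM in GFP- and 1224 to 2605 CPM in GFP+ libraries. Within this list edgeR called the receptor Ctla4 higher and Lrrc32, which displays latent TGF-beta, lower, where 9.82% of all tested genes rose and 3.72% fell. The listed Treg markers Gpr83 and Nrp1 were measured in the poly(A) pair only. Gpr83 was at 145.6 CPM in GFP- and 20.3 CPM in GFP+ cells, a log2 ratio of -2.81, and Nrp1 at 228.6 and 184.7 CPM. Il2ra, the gene of the sorted marker CD25, was at -0.64 ± 0.23 and did not pass in edgeR (adjusted p = 0.111), while DESeq2 and limma called it lower.

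Some markers of other cells differed with GFP as well, where 9.82% of all tested genes rose and 3.72% fell by edgeR. All 12 macrophage markers tested of 14 listed rose, with a median log2 fold change of 5.80, and their sum was 13.8 to 29.6 CPM in GFP- and 783 to 1773 CPM in GFP+ libraries. The most abundant were the complement genes C1qc and C1qb and the growth factor receptor Csf1r, which was at 2.83 to 4.17 CPM against 236 to 329.7 CPM. Of 8 plasma cell markers, 6 were tested and 2 rose by edgeR (Tnfrsf13b and Sdc1), and the sum of the 7 with counts was 18.8 to 30.7 CPM against 34.7 to 159 CPM, the highest value holding 135 CPM of Jchain. Others of that list pointed down: Slamf7 was at -0.83 ± 0.29, which DESeq2 called lower and edgeR did not, Eaf2 at -0.84 ± 0.42 and Pou2af1 at a log2 ratio of -0.58 in the poly(A) pair. Jchain, Tnfrsf13b and Ell2 were the most abundant of them, and the defining receptor Tnfrsf17 was at 0 to 0.0719 CPM in GFP- and 0 to 0.216 CPM in GFP+ libraries. Of the B cell markers, 1 of 8 tested rose (Blk), which is near the share of all tested genes. Their sums were 73.8 to 184 CPM against 104 to 323 CPM, most of it from Cd79b, Cd79a and Ms4a1. Of the dendritic cell markers, 1 of 3 tested rose (Itgax), with sums of 2.77 to 4.30 CPM against 7.96 to 18.7 CPM, led by Itgax, Batf3 and Zbtb46. These cells have secretory genes of their own, and the part of their RNA in the values of Atf6, Hsp90b1, Pdia6, Txndc5 and the other genes above was not tested.

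**Figure D5:**
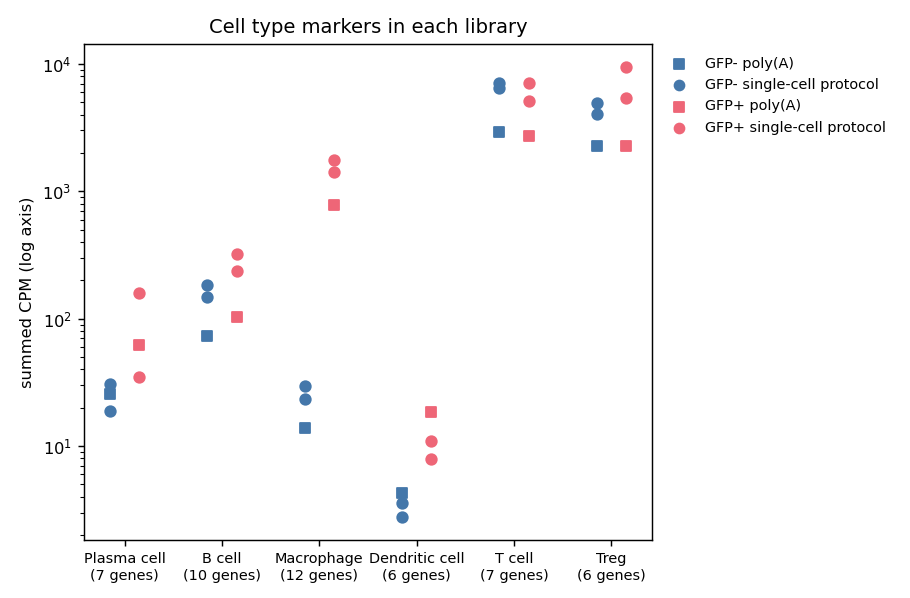
Summed CPM (log axis) of cell type marker lists in each library, with blue for GFP- and red for GFP+, squares for poly(A) and circles for single-cell protocol libraries. The number of genes summed is given under each list. T cell sums overlap between populations, while macrophage sums are at most 29.6 CPM in GFP- and at least 783 CPM in GFP+ libraries.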

How the data were processed

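Per the labels and file headers, the authors deposited unnormalised read counts by gene for each library, in a poly(A) and a single-cell protocol table, and log2 RPKM values, which per the file headers are on the log2 scale. The submitters' processing notes name Subread, featureCounts, edgeR and the build mm9. Their versions were not given in the sources used here. Nothing read here says whether counting used strand, so reads of overlapping genes may be shared. The deposited gene lengths differ between tables: 30.9% of genes have exactly 3000 bases in the single-cell protocol table.

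The counts were analysed with edgeR 4.0.16 in R 4.3.3. The 3507 genes of chromosomes 3, 8 and 9, which had almost no single-cell protocol counts, were left out before scaling. The chromosomes came from RefSeq by gene number, and 2110 genes had none. Genes were kept by filterByExpr and libraries scaled by TMM. The quasi-likelihood F-test had the protocol as covariate and 3 residual degrees of freedom, with Benjamini-Hochberg adjustment over all tested genes at 0.05. Standard errors were derived from the F statistic, and intervals are at 95%. Ratios in the poly(A) pair used a pseudocount of 0.5 CPM and have no test. The script was checked on simulated data. No libraries of a population were copies of each other (chi-square per degree of freedom of at least 65.4 for every pair).

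Alternatives were DESeq2 1.42.0, limma 3.58.1 on the log2 RPKM values, other scalings, no count filter, no protocol covariate, the single-cell protocol libraries alone and leaving out each library. All 44 genes are named. Values in every library were planned for genes past the threshold and for Xbp1, Atf4, Atf6, Ern1, Eif2ak3, Ddit3, Hspa5, Hsp90b1, Mzb1 and Derl3, and those of other genes were added after their values were seen. From each further list up to 3 genes with the smallest p were named, and of marker lists the 3 most abundant. The 44 genes and all lists were chosen with earlier results of these data known.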

Additional observations from a re-analysis of the deposited data

How the results depend on the processing

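The number of tested members that rose depended on the method. In the edgeR fit reported it was 1 of 35 (Atf6), and with DESeq2 3 of 35 (Atf6, Hsp90b1 and Pdia6). Without a count filter it was 3 of 36 (Atf6, Hsp90b1 and Mzb1), and with scaling by library totals 2 of 35 (Atf6 and Hsp90b1). It was 0 without the protocol covariate, 0 in the single-cell protocol libraries alone, and 0 to 1 when a library was left out. None fell under any of these. Of all 10550 tested genes, 1036 rose and 392 fell in the fit reported. DESeq2 called 1204 of these 10550 higher and 715 lower. Scaling by library totals gave 1074 and 284, and no protocol covariate 113 and 23. No count filter gave 1594 higher and 815 lower of 18367 genes, and the single-cell protocol libraries alone 567 and 144 of 10235. Leaving out a library gave 569 to 1336 higher and 140 to 838 lower, with the lowest counts without GFP+ replicate 19 and GFP- replicate 20, the poly(A) libraries, and the highest without GFP- replicate 5. The cause of the other differences between these counts was not tested. Of 455 values of the 35 tested genes under 13 alternatives, 445 kept their call or lack of it, 5 lost and 5 gained a call, and none reversed while called, though 15 genes without a call changed sign at least once. No paired analysis was run, because the populations share no replicate numbers and the labels name no pairs. The numbers are neighbours within each protocol (GFP+ 1 and GFP- 2, GFP+ 4 and GFP- 5, GFP+ 19 and GFP- 20). The labels do not say whether neighbours belong together, and such a pairing was not tested. With 3 libraries per population, standard errors near 0.28 on the log2 scale limit what could be called. They were largest for Mzb1 (0.57), Sec61b (0.49) and Atf4 (0.44).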
